A study of Homo sapiens with 12 samples.

Results

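MicroRNAs were compared between HCT116 cells carrying the E5 form of DICER and HCT116 cells carrying wild-type DICER (WT), using 2 libraries of each form out of 12 in the series. HCT116 is an established human colorectal carcinoma cell line. The labels give all 12 libraries as this line with a rescue DICER, which is WT, E5, A5, ΔPAZ helix, R821E or R821A, 2 libraries each, and name no treatment, time or clone. The libraries of E5 and WT were taken by their titles, and every human miRNA entry was analysed, with the spike-in entries as a second scale. The sources used here do not give which residues E5 changes, how the rescue was made or how much DICER protein each line held, and small RNA counts do not measure DICER itself. The labels number the 2 libraries of a form as replicates without naming separate cultures, so the spread between them may be technical. The p-values of the edgeR and limma tests rest on that spread pooled over all 12 libraries, not on those of E5 and WT alone.

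DICER is the ribonuclease that cuts a precursor hairpin (pre-miRNA) near its loop, leaving a short duplex from which 1 strand is loaded into an Argonaute protein. The strand from the 5′ side of the hairpin is named 5p and the strand from the 3′ side 3p. Bases 2 to 8 of the loaded strand, the seed, pair with target mRNAs, so miRNAs that share a seed form a family with largely common targets. AQ-seq is a small RNA sequencing protocol designed to reduce ligation bias, with spike-in RNAs added to the sample.

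The sequences below are the strands on which the comparison turned, together with same-seed relatives whose level did not pass the test. RefSeq (GRCh38.p14) held a mature sequence for 331 of the 374 tested entries. Each is written 5′ to 3′ with the seed in capitals.
let-7d-5p: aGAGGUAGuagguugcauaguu
let-7e-5p: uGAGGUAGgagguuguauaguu
let-7f-5p: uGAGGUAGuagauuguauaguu
let-7i-5p: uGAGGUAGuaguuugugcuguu
miR-98-5p: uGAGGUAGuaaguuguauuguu
let-7c-5p: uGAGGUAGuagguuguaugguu
let-7g-5p: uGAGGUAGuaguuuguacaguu
miR-25-3p: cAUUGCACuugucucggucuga
miR-92a-3p: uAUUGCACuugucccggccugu
miR-92b-3p: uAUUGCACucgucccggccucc
miR-32-5p: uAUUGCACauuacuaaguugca
miR-301a-3p: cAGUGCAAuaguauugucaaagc
miR-454-3p: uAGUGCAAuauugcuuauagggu
miR-130b-3p: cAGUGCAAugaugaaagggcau
miR-221-3p: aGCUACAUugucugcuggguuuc
miR-222-3p: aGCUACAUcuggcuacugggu
miR-99b-5p: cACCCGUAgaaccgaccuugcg
miR-100-5p: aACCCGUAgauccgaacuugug
miR-185-5p: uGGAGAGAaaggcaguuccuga

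The tables held 1346 miRNA entries, of which 374 had enough counts to be tested and carried 99.6% of the miRNA counts. The WT libraries held 250755 and 247226 miRNA counts and the E5 libraries 179615 and 227199. At these depths 3 counts correspond to between 10.4 and 16.6 CPM (counts scaled to library size, here with TMM factors). This limit and the interval given below cover counting error alone, because PCR copies were not told apart by molecular identifiers. All 10 miRNAs listed as marks of HCT116 and colorectal epithelium had counts in the 4 libraries together, among them miR-21-5p at 84715 to 106807 counts. miR-31-5p had 5687 to 12461, miR-200b-3p 199 to 305 and miR-200a-3p 89 to 252. miR-429 had 37 to 97, miR-194-5p 26 to 46 and miR-192-5p 21 to 41. Lowest were miR-200c-3p at 6 to 12, miR-141-3p at 5 to 10 and miR-215-5p at 0 to 2. Among marks of other cells, miR-124-3p of neurons had 0 or 1 count, miR-122-5p of hepatocytes 0 to 2 and miR-223-3p of myeloid cells 0 to 2, while miR-142-3p of leukocytes had 57 to 93 and miR-9-5p of neurons 130 to 158. miR-145-5p of fibroblasts had 96 to 142, miR-126-3p of endothelium 41 to 121 and miR-451a of erythroid cells 32 to 45. The other members of these lists were lower. miR-143-3p of fibroblasts had 4 to 13 and miR-199a-3p 2 to 4. miR-486-5p of erythroid cells had 7 to 23 and miR-144-3p 3 to 11. miR-142-5p of leukocytes had 8 to 14, miR-150-5p 0 to 2, and miR-133a-3p of muscle 0. miR-155-5p, miR-1-3p and miR-206 were not among the entries. The part of other cells in the results was not tested.

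E5 cells held less of 25 miRNAs and more of 9 than WT cells, relative to the other miRNAs of the same library. Those that fell included 5 of the 9 let-7 and miR-98 5p strands, 3 of 4 strands with the miR-25/92 seed, the 3p strands of miR-221 and miR-222, miR-185-5p, miR-744-5p and miR-324-5p. The falls ranged from 0.48 to 2.63 on the log2 scale and the rises from 0.51 to 1.89. The 25 miRNAs that fell made up 15.7% and 13.8% of miRNA counts in WT and 8.06% and 9.29% in E5, and the 9 that rose made up 4.42% and 3.32% in WT and 5.52% and 5.59% in E5. These miRNAs were picked by their change in the same libraries, so the direction of the shares follows from the selection and is no separate result.

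The test was edgeR's quasi-likelihood test on the TMM scale with Benjamini-Hochberg adjusted p under 0.05, in which 9.09% of the 374 entries passed, 2.41% higher and 6.68% lower. At an unadjusted p under 0.05, 88 entries passed (23.5%). On this scale both E5 libraries lay above both WT libraries in 82 entries (21.9%) and below them in 89 (23.8%). All 34 calls were among these, so lack of overlap adds nothing for a called entry. The split of rises and falls moved with the scaling. It was 13 to 22 with DESeq2's size factors, 3 to 28 with total counts and 0 to 102 relative to the spike-ins. The number of calls rested on single libraries, at 6 without E5 replicate 2, 15 without WT replicate 2 and 21 without E5 replicate 1. With the 4 libraries fitted alone, which leaves little information on the spread, edgeR called 0 entries, 51 having an unadjusted p under 0.05. The main fit takes its spread from all 12 libraries, so its p-values would be too small where E5 and WT libraries vary more than the others. The SDs of WT and E5 were above those of every other form for miR-31-5p and below them for let-7g-5p. This was not tested over all entries. All 34 kept their direction in each of these alternative fits except the one relative to the spike-ins, where 3 of the 9 rises had a negative log2 fold change. Because the libraries of the 34 did not overlap, leaving out a library or fitting the 4 alone could hardly reverse a direction. The kept direction in those fits is therefore no added support.

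**Figure D1:**
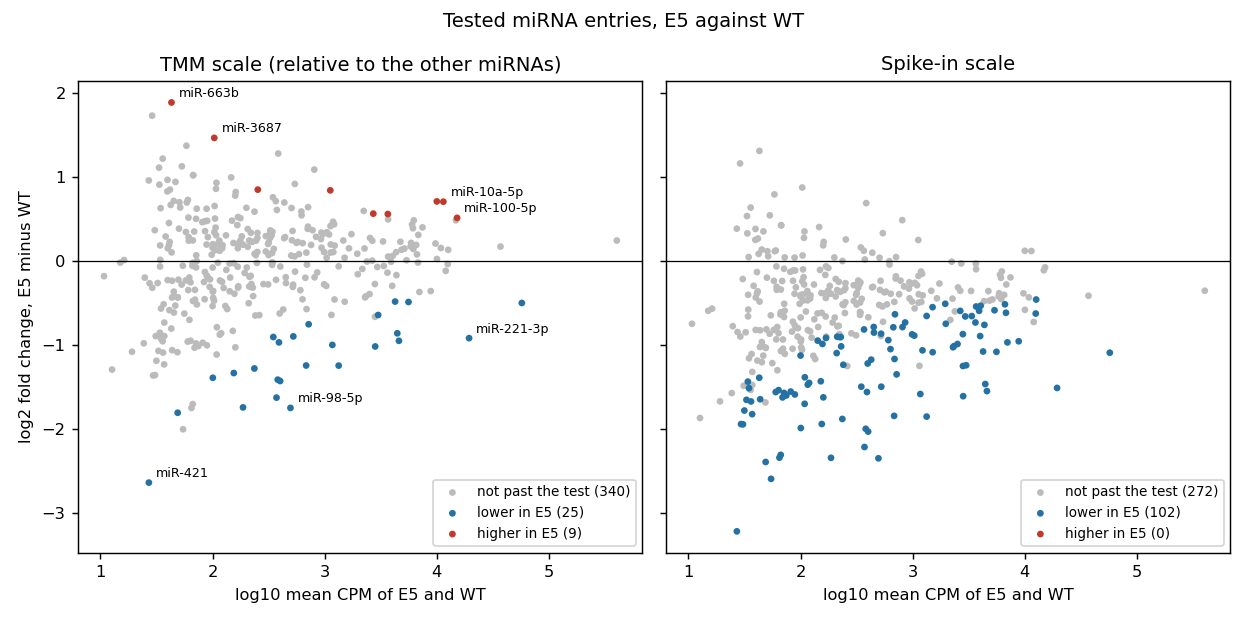
Log2 fold change of E5 minus WT (vertical axis) against log10 of the mean CPM (horizontal axis) for the 374 tested entries, on the TMM scale (left) and relative to spike-ins (right). Each point is an entry. On the left 25 entries are past the test below 0 and 9 above it. On the right 102 are past it, all below 0.

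Relative to the spike-ins, total miRNA counts were lower in the E5 libraries. For every spike-in count the WT libraries held 22.4 and 25.9 miRNA counts (24.2 ± 2.49, SD, n = 2), and the E5 libraries 17.7 and 16.5 (17.1 ± 0.856). The groups did not overlap, and the exact two-sided permutation p was 0.33, the smallest that 2 libraries against 2 can give. Without miR-21-5p, the most abundant miRNA, the values were 14 and 14.7 in WT and 9.37 and 9.49 in E5. Each of the 29 spike-ins with at least 20 counts gave a ratio of miRNA to spike-in below 1 for E5 over WT, from 0.438 to 0.999 with a median of 0.711. For 19 of the 29 both E5 libraries lay below both WT libraries, and for the others the libraries overlapped. All 29 ratios use the same miRNA totals, so they are not independent of one another. The shares of the single spike-ins moved between the groups by −0.53 to 0.70 on the log2 scale. Less miRNA per cell, and differences in the total RNA or the amount of spike-in that went into a library, cannot be told apart here.

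On the spike-in scale edgeR called 102 of 374 entries (27.3%), all of them lower in E5, and the median log2 fold change was −0.56 against 0.03 on the TMM scale. Without E5 replicate 2 the count was 63. The 102 held all 25 miRNAs that fell on the TMM scale. The other 77 were 38 5p strands, 33 3p strands and 6 entries with no arm in the name. Of these 77, the most abundant in WT were miR-27a-3p, miR-16-5p, miR-29a-3p, let-7a-5p and miR-30c-5p. miR-16-5p, a strand of the family that targets cyclins and BCL2, had 319 and 320 counts per 1000 spike-in counts in WT and 244 and 221.8 in E5, a fall by 0.46 on the log2 scale (edgeR adjusted p = 0.0261). miR-29a-3p, which targets collagen mRNAs, had 237 and 291 in WT and 133 and 139 in E5, a fall by 0.95. For both, the E5 libraries lay below the WT libraries, as they did for 218 of the 374 entries (58.3%) on this scale. On the TMM scale, neither passed.

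None of the 9 rises on the TMM scale passed relative to the spike-ins. miR-663b had a log2 fold change of 1.31 there (edgeR adjusted p = 0.0575). Of the 8 with at least 100 CPM, miR-3687 had 0.88 (edgeR adjusted p = 0.0591) and the other 7 lay between −0.07 and 0.26. miR-10a-5p, encoded in the HOXB locus, stood at 10044 and 7353 CPM in WT and 14200 and 14195 in E5. Per 1000 spike-in counts it stood at 258 and 201 in WT and 253 and 247 in E5. Its groups thus lay apart on the first scale and overlapped on the second.

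**Figure D2:**
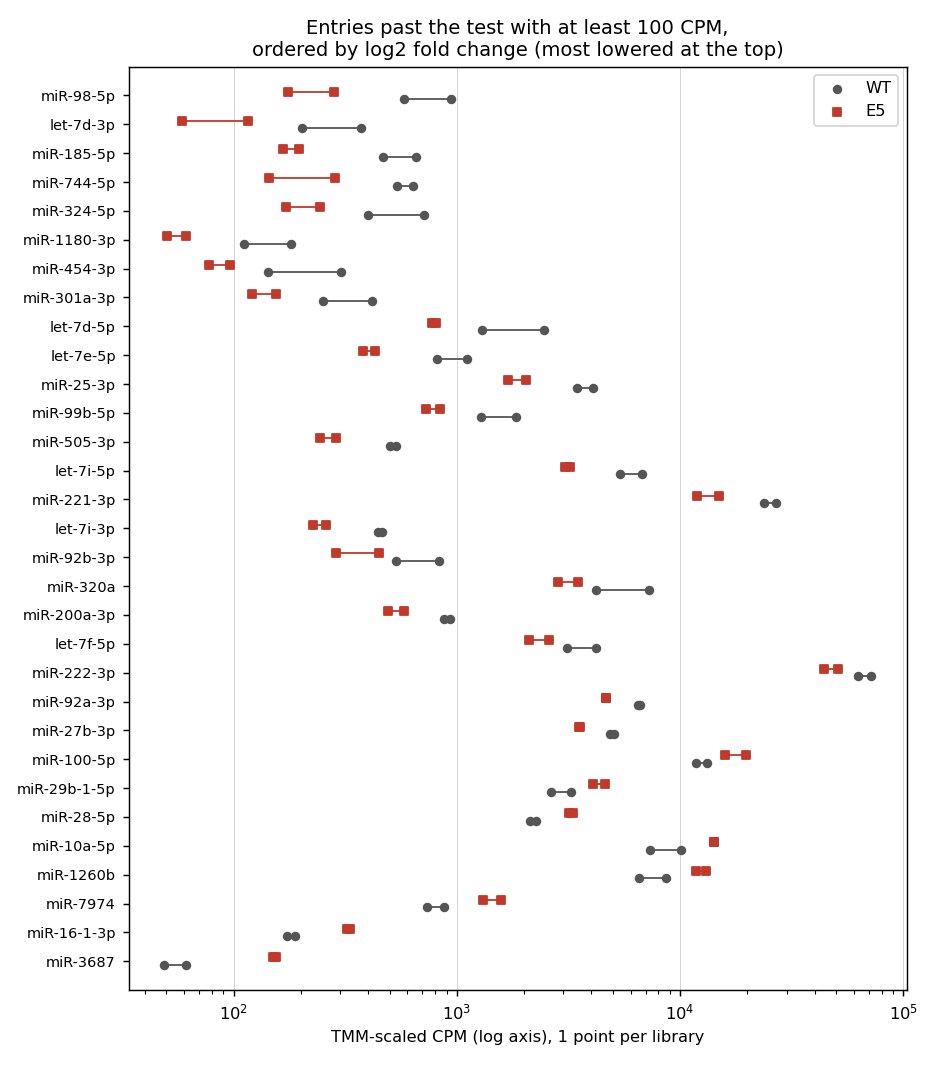
TMM-scaled CPM (horizontal log axis) of the 31 miRNAs past the test with at least 100 CPM in E5 or WT, 1 point per library, circles for WT and squares for E5, joined by a line within a form. The E5 points lie to the left of the WT points in the upper 23 rows and to the right in the lower 8.

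The let-7 family, which restrains the growth genes RAS, HMGA2 and LIN28, had the most calls of any seed. It also had the most tested entries of the seeds with a call. By share, 55.6% of its 9 entries fell, beside 6.68% of all entries. The share was 75% of 4 for the seed of miR-25-3p and 100% of 2 for that of miR-221-3p. It was 50% for each other seed with a call. let-7i-5p fell from 5363 and 6744 CPM in WT to 3223 and 3054 in E5, a log2 fold change of −0.95 ± 0.14 (SE; edgeR adjusted p = 0.00199). miR-98-5p had 581 and 942 in WT and 282 and 176 in E5, a change of −1.75 ± 0.30 (adjusted p = 0.00427, edgeR). In neither did the libraries of the forms overlap. let-7d-5p (1291 and 2459 in WT, 809 and 775 in E5), let-7e-5p (811 and 1111, then 432 and 381) and let-7f-5p (3115 and 4193, then 2592 and 2099) changed by −1.24, −1.24 and −0.64.

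The remaining 4 let-7 5p strands did not pass. let-7a-5p had a log2 fold change of −0.37, let-7b-5p −0.27, let-7g-5p −0.01 and let-7c-5p 0.25. let-7g-5p was level, at 2391 and 2378 CPM in WT and 2348 and 2404 in E5. The median of the 9 was −0.64, beside 0.03 over all 374 entries, and together they took 2.64% and 3.21% of miRNA counts in WT and 1.91% and 1.79% in E5. Relative to the spike-ins, 7 of the 9 fell, with a median of −1.24 beside −0.56. Reads of near-identical let-7 strands may have been counted for more than 1 entry, so single members are uncertain.

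Of the 10 let-7 3p strands, the partners that are mostly discarded, let-7d-3p and let-7i-3p fell, by 1.74 and 0.90 on the log2 scale. The median of these 10 was 0.03, and it was negative with upper quartile factors, total counts and spike-ins. Both arms therefore fell for let-7d and let-7i. The hairpins of the let-7 family are divided into group II, most of which leave the nucleus with a shorter 3′ end and are given a single uridine by terminal uridylyl transferases before DICER cuts them, and group I (let-7a-2, let-7c and let-7e), which are not. Of the 14 group II entries, 6 fell (median −0.46). Of the 4 group I entries 1 fell, let-7e-5p (median −0.39). No test of a difference between the groups was made.

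The hairpins of these let-7 strands lie apart in the genome. let-7i-5p is at chr12:62603691-62603712 on the plus strand, in an intron of the long non-coding gene AC048341.1. miR-98-5p is at chrX:53556299-53556320 on the minus strand, in an intron of HUWE1, with let-7f-2 close by in the same gene. let-7d-5p (chr9:94178841-94178862) lies with let-7a-1 and let-7f-1 in an intron of AL158152.2. There let-7d-5p and let-7f-5p fell, while let-7a-5p did not pass. Reads of let-7f-5p and let-7a-5p cannot be assigned to 1 locus.

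Of 4 strands with the seed of miR-25 and miR-92, repressors of the pro-apoptotic gene BCL2L11, 3 fell. miR-25-3p stood at 4086 and 3469 CPM in WT and 1695 and 2040 in E5, a log2 fold change of −1.01 ± 0.15 (edgeR adjusted p = 0.00199). miR-92a-3p stood at 6595 and 6453 in WT and 4674 and 4641 in E5 (−0.49), and miR-92b-3p at 532 and 831 in WT and 448.6 and 289 in E5 (−0.90). All 3 had both E5 libraries below both WT libraries. The fourth strand of the seed, miR-32-5p, comes from the other side of its hairpin, and had a log2 fold change of 0.42 that did not pass (981 and 950 CPM, then 1207 and 1370). With the passenger strands included, 3 of 8 entries of these hairpins fell, with a median of −0.96 beside 0.03 over all entries.

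miR-25 is transcribed with miR-93 and miR-106b from an intron of the replication gene MCM7. miR-25-3p is at chr7:100093571-100093592 on the minus strand. Of the 6 entries of that transcript only miR-25-3p passed, while miR-93-5p had −0.42 and miR-106b-5p 0.15. The passenger strand miR-25-5p had −1.03, a change as large as that of miR-25-3p, at a lower level (93.1 and 45.2 mean CPM in WT and E5). miR-93-3p had −0.13 and miR-106b-3p −0.53. In the miR-17~92 transcript (MIR17HG), which encodes miR-17, miR-18a, miR-19a, miR-20a, miR-19b-1 and miR-92a-1, the 1 entry that passed was miR-92a-3p, which is also encoded at a second locus. miR-17-5p and miR-20a-5p had −0.01 and 0.05. The passenger strands miR-92a-1-5p and miR-18a-3p had −1.19 and −0.87 and did not pass. All other entries of the transcript lay between −0.01 and 0.31. So within both transcripts the entries differed in whether they passed, a difference that was not itself tested.

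The family of miR-130, miR-301 and miR-454 split in the same manner. miR-301a-3p fell from 251 and 417 CPM to 155 and 121 (log2 fold change −1.28), and miR-454-3p from 143 and 303 to 77.5 and 96.3 (−1.33). Both lie in introns of SKA2. miR-301b-3p, with 34.8 and 68.9 CPM in WT, had −1.23 and did not pass, and miR-130b-3p had 0.17. miR-130a-3p, for which no reference sequence was held, did not pass either. It had 954 and 781 CPM in WT and 620 and 892 in E5, with overlapping libraries. Over the 9 tested entries of the family 2 fell and the median was −0.34.

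miR-221-3p and miR-222-3p, which repress the cell cycle inhibitor CDKN1B and the receptor KIT, share a transcript (MIR222HG) on chromosome X. miR-221-3p fell from 26987 and 23758 CPM in WT to 11957 and 14933 in E5, a log2 fold change of −0.92 ± 0.14 (edgeR adjusted p = 0.00199). miR-222-3p, the second most abundant entry in WT, fell from 71758 and 62420 to 44235 and 50779, a change of −0.50 ± 0.14 (adjusted p = 0.0349, edgeR). The passenger strands did not pass: miR-222-5p had −0.14 and miR-221-5p 0.48, the latter with overlapping libraries (2610 and 7785 CPM, then 10224 and 4335).

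miR-99b-5p and miR-100-5p have the same seed, target MTOR and moved in opposite directions. miR-99b-5p fell from 1834 and 1283 CPM to 836 and 729, a log2 fold change of −0.996 ± 0.21 (edgeR adjusted p = 0.0139). miR-100-5p rose from 13239 and 11741 to 19739 and 15950, a change of 0.51 ± 0.13 (adjusted p = 0.0313, edgeR). Relative to the spike-ins the first changed by −1.58 and the second by −0.07. miR-99b-5p is at chr19:51692618-51692639, in an intron of SPACA6, with let-7e and miR-125a. let-7e-5p of that transcript also fell, while miR-125a-5p had 0.34 and did not pass. The passenger strands did not pass either, with −1.11 for miR-99b-3p, −0.36 for miR-125a-3p and 0.19 for let-7e-3p. miR-100-5p is at chr11:122152275-122152296 in MIR100HG, beside let-7a-2.

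Among the 331 tested entries with a reference sequence, seeds shared by 2 or more numbered 41, and 6 of them held a call. Besides those above, the seed UCACAGU joined miR-27b-3p, which fell by 0.48, and miR-27a-3p, which had −0.04 on the TMM scale and turned positive with DESeq2's size factors.

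**Figure D3:**
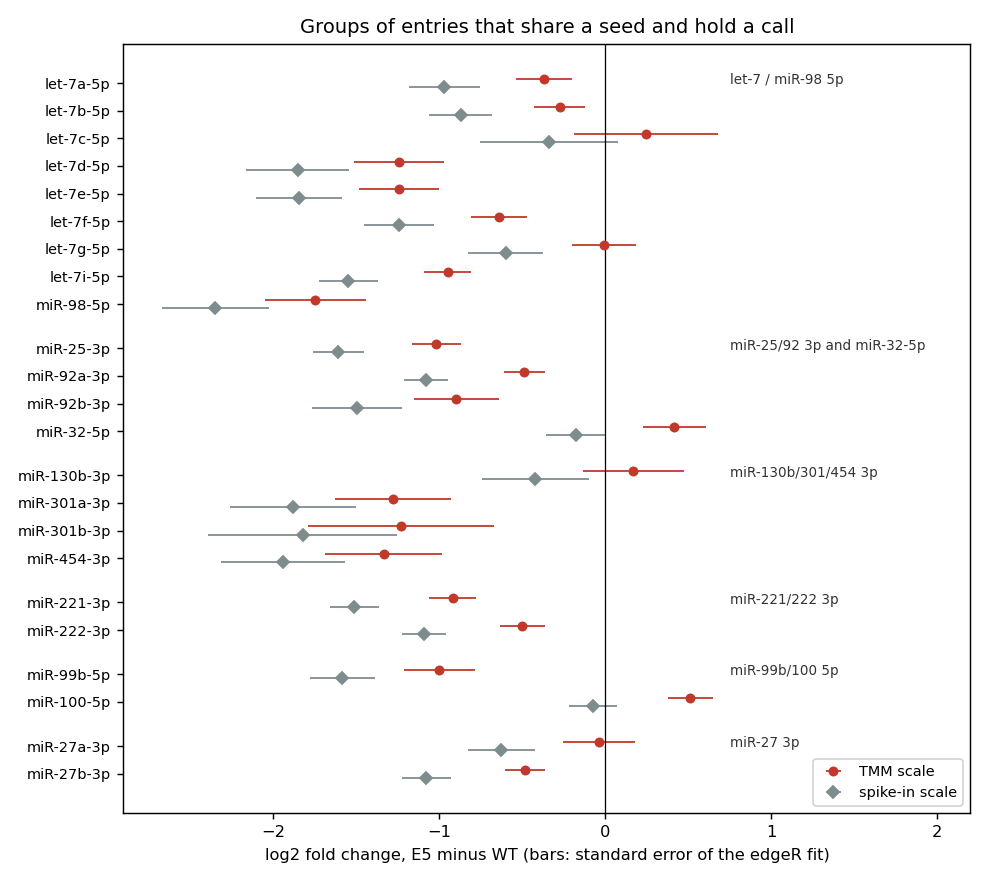
Log2 fold change of E5 minus WT (horizontal axis, with the standard error of the edgeR fit) for the members of the 6 shared seeds that held a call, circles on the TMM scale and diamonds relative to the spike-ins. Within a seed the members spread widely: let-7 runs from −1.75 (miR-98-5p) to 0.25 (let-7c-5p), and miR-99b-5p and miR-100-5p lie on opposite sides of 0 on the TMM scale.

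Some of the largest falls were in miRNAs whose seed no other called entry shares. miR-185-5p, from an intron of TANGO2 (chr22:20033153-20033174, plus strand), went from 658 and 467 CPM to 166 and 197, a log2 fold change of −1.62 ± 0.26 (edgeR adjusted p = 0.00199). miR-744-5p, from an intron of MAP2K4, went from 539 and 636 to 144 and 285 (−1.43), and miR-324-5p from 713 and 398 to 172 and 243 (−1.41). No E5 library reached a WT library in these 3. Also lower were miR-1180-3p (−1.39), miR-505-3p (−0.97), miR-320a (−0.86) and miR-200a-3p (−0.75), the last a repressor of ZEB1 and ZEB2 and a mark of epithelial cells.

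A further 3 calls were under 100 CPM and rest on few reads. miR-421 had 15 and 11 counts in WT and 1 and 2 in E5. Its summed counts were 26 in WT and 3 in E5, and their ratio after scaling to TMM library size was 0.151 with an exact 95% interval of 0.0292 to 0.492. miR-340-3p had 24 and 18 counts in WT and 4 and 5 in E5, and miR-663b 7 and 3 in WT and 11 and 18 in E5.

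Of the rises, miR-10a-5p had a log2 fold change of 0.71 ± 0.15 (edgeR adjusted p = 0.0139). miR-1260b (0.71), miR-7974 (0.84), miR-16-1-3p (0.85), miR-29b-1-5p (0.56) and miR-28-5p (0.56) were also higher. miR-3687 had the largest rise above 100 CPM, 1.47, from 48.7 and 61.3 CPM to 150 and 155. All of these had both E5 libraries above both WT libraries on this scale.

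The most abundant miRNAs of WT mostly did not pass on the TMM scale. miR-21-5p, an oncogenic miRNA, took 37.7% and 43.2% of miRNA counts in WT and 47.2% and 42.6% in E5, with overlapping libraries and a log2 fold change of 0.25 (edgeR adjusted p = 0.413). miR-31-5p had 0.17, miR-4521 0.49, miR-16-5p 0.13, miR-24-3p 0.16, miR-27a-3p −0.04 and miR-21-3p −0.12. Of the 10 most abundant, miR-222-3p, miR-221-3p and miR-100-5p passed.

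Several families held no call on the TMM scale: miR-19 (4 tested entries), miR-30 (10), miR-26 (5), miR-34 (5), miR-103 and miR-107 (3), miR-125 (4), miR-148 and miR-152 (4), miR-181 (7), miR-183, miR-96 and miR-182 (6) and miR-192, miR-194 and miR-215 (2). With 9.09% of all entries called, lists this small would hold few calls at the background rate. Relative to the spike-ins, where 27.3% of all entries fell, 4 of 7 miR-181 entries, 3 of 6 of miR-183, miR-96 and miR-182, 2 of 5 of miR-26 and 3 of 10 of miR-30 fell. On that scale 1 of 3 entries of miR-103 and miR-107, 1 of 4 of miR-148 and miR-152 and 1 of 5 of miR-34 fell. The falls were 0 of 4 for miR-19, 0 of 4 for miR-125 and 0 of 2 for miR-192, miR-194 and miR-215. In the miR-15/16 family 1 of 10 entries rose, miR-16-1-3p, and in the miR-29 family 1 of 7, miR-29b-1-5p. Mirtrons are hairpins released by splicing instead of Drosha. Both tested mirtron strands were of miR-877, had log2 fold changes of −1.03 (5p) and −1.75 (3p), missed the test on the TMM scale and passed it relative to the spike-ins. In the miR-200 family 1 of 6 entries fell, and in miR-23/27/24 1 of 11.

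By arm, 14 of the tested 3p strands fell (9.46%) and 1 rose, and 9 of 174 5p strands fell (5.17%) and 4 rose. Of the 52 entries with no arm in the name, 2 fell (3.85%) and 4 rose (7.69%). Thus 4 of the 9 rises had no arm in the name, namely miR-3687, miR-663b, miR-1260b and miR-7974. Whether DICER makes these 4 was not tested. Medians on the log2 scale were −0.13 for 3p and 0.14 for 5p strands. Relative to all miRNA counts, 3p strands took 27.5% and 24.9% in WT (26.2% ± 1.81, SD, n = 2) and 18.8% and 21.9% in E5 (20.4% ± 2.23). The groups did not overlap (exact two-sided permutation p = 0.33, the smallest possible). Without miR-21-5p the shares were 44.1% and 43.9% in WT and 35.5% and 38.2% in E5. These shares sum counts, so abundant strands weigh most in them. miR-222-3p alone held 20618 and 16300 counts in WT and 7987 and 12123 in E5. miR-221-3p held 7754 and 6204 in WT and 2159 and 3565 in E5. The 3p share without these strands was not computed.

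The ratio of the 2 arms of a hairpin is free of library scaling, because both are counted in the same library. For 5 of the 58 hairpins whose arms both had a RefSeq locus (let-7a, miR-101, miR-181a, miR-181b and miR-550a), the 5p and 3p entries came from different sets of loci, so that ratio is not of 1 precursor. Among 69 hairpins with enough counts in both arms, 3 moved toward the 5p arm in E5 and 0 toward the 3p arm (4.35% by limma with adjusted p under 0.05). At an unadjusted p under 0.05 there were 11, of which 8 went toward 5p. The shift of the log2 ratio of 5p to 3p was positive in 45 of 69, with a median of 0.13. The 3 calls were lost without WT replicate 2, without E5 replicate 1 and without E5 replicate 2, and there were 5 without WT replicate 1. In those fits limma gave 10 to 18 hairpins at an unadjusted p under 0.05.

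miR-454 and miR-29a are shown as hairpins because their arm ratios gave the lowest p. The RefSeq hairpins (GRCh38.p14) are written 5′ to 3′ with the 5p and 3p strands in capitals. The miR-454 hairpin is at chr17:59137758-59137872 on the minus strand, in an intron of SKA2, and that of miR-29a at chr7:130876747-130876810 on the minus strand, in an intron of a long non-coding RNA gene.
miR-454: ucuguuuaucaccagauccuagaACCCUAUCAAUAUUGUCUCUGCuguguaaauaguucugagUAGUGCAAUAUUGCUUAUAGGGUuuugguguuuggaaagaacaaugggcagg
miR-29a: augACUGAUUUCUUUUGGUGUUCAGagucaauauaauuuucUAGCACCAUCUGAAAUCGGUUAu

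For miR-454 the log2 ratio of 5p to 3p was 1.12 and −0.11 in WT and 2.56 and 2.15 in E5, a shift of 1.85 ± 0.39 (SE; limma adjusted p = 0.0237). The 3p strand fell, and the 5p strand had 0.61 and did not pass. For miR-29a the log2 ratio was −0.97 and −0.94 in WT and −0.06 and −0.27 in E5, a shift of 0.79 ± 0.17 (adjusted p = 0.0237, limma). Neither strand of miR-29a passed alone, with −0.36 for 3p and 0.44 for 5p. For miR-200a, where 3p dominates, the log2 ratio went from −3.20 and −3.97 to −1.76 and −2.09, a shift of 1.66 ± 0.40 (adjusted p = 0.0410, limma). In all 3 the libraries of the 2 forms did not overlap. Among all 69 hairpins the libraries lay apart toward 5p in 21 and toward 3p in 5.

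Another 2 hairpins differed in leading arm between the group means, without overlap of the libraries, and missed the test. miR-324 had a shift of −1.16 toward its 3p strand (limma adjusted p = 0.0762), from log2 ratios of 0.43 and −0.12 to −0.99 and −1.02. Its direction is opposite to that of the 3 calls, and its 5p strand fell while its 3p strand, at −0.19, did not pass. miR-550a had a shift of 1.06 toward 5p (adjusted p = 0.119, limma), with arms that pool different loci.

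**Figure D4:**
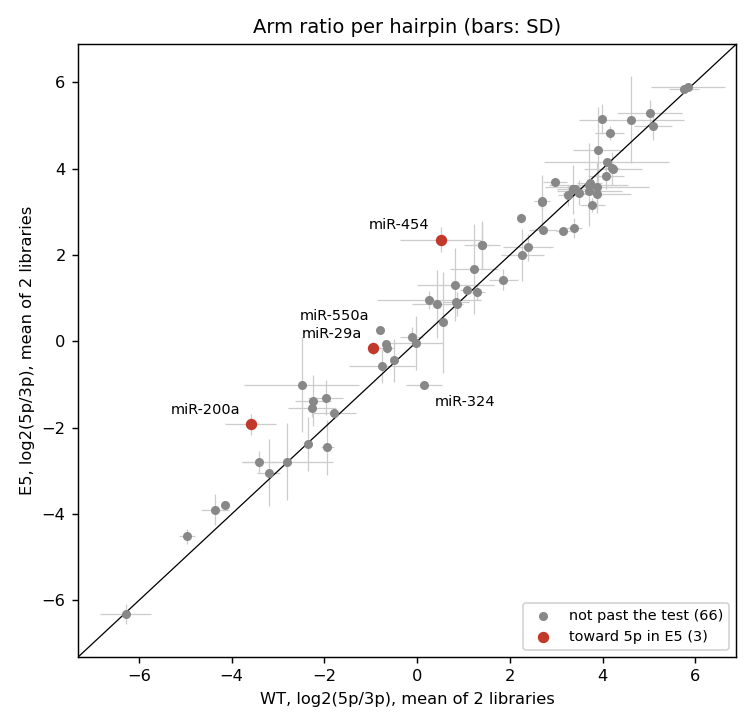
Log2 ratio of 5p to 3p counts in E5 (vertical axis) against WT (horizontal axis) for 69 hairpins, each point the mean of 2 libraries with the SD as bars, and the line marking equal ratios. miR-454, miR-29a and miR-200a lie above the line and passed the test. miR-324 lies below it and did not.

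Calls were also counted by the length of the precursor, from the first base of the 5p strand to the last base of the 3p strand, with no test between lengths. Lengths could be given for 270 entries from the RefSeq hairpins. Among 73 entries with precursors of 63 to 86 bases, 12 fell and 3 rose. Among 136 with 52 to 60 bases, 9 fell and 1 rose, and among the 61 between, 0 passed. let-7 hairpins have long loops and made up 18 of the 73, with 7 of the 12 falls. The other 55 long precursors had 5 falls and 3 rises, and their median was −0.05, beside 0.02 over the 197 shorter ones. By the first base of the mature strand, 13 of 130 strands that begin with U fell and 1 rose, 4 of 89 with A fell and 3 rose, 6 of 78 with C fell and 1 rose, and 0 of 34 with G fell and 2 rose, beside 6.68% of all entries that fell. Outside the let-7 family, 9 of 122 that begin with U fell (7.38%). Calls also followed abundance, at 15.2% of the 125 most abundant entries and 3.20% of the 125 least abundant, so a class of more abundant strands would hold more calls.

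E5 was next compared directly with the other forms in the same edgeR fit. Against A5, 0 of 374 entries passed on either scale, with 37 at an unadjusted p under 0.05 (9.89%) and 0 by DESeq2. The lowest edgeR adjusted p against A5 was 0.190 on the TMM scale and 0.0523 relative to the spike-ins. On both scales miR-25-3p and then miR-92a-3p came first by p. Against ΔPAZ helix, the form whose name gives a deletion of the PAZ helix, 0 passed, with 37 at an unadjusted p under 0.05 (9.89%) and 0 by DESeq2. Against R821A, 0 passed, with 53 at an unadjusted p under 0.05 (14.2%) and 0 by DESeq2. The median standard error of these differences was 0.33 on the log2 scale for each of A5, ΔPAZ helix and R821A, so small differences were not detectable. Relative to the spike-ins, E5 was lower than R821A in 9 entries (2.41%), namely miR-222-3p (−0.91), miR-222-5p, miR-221-3p, miR-99b-5p, miR-505-3p, miR-92a-3p, miR-23b-3p, miR-31-3p and miR-3200-3p.

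Against R821E, which replaces an arginine by a glutamate by its name, E5 differed in 112 entries (29.9%), being higher in 51 and lower in 61. With total counts 11 of 114 were lower, and relative to the spike-ins 136 were higher (36.4%) and 4 lower (1.07%). At an unadjusted p under 0.05, 156 passed on the TMM scale (41.7%). The count was 37 without E5 replicate 2, 39 without R821E replicate 1 and 60 without R821E replicate 2. miR-193a-3p (log2 difference 2.38), miR-194-5p (2.01), and miR-126-3p and miR-25-3p (both 1.69) were the largest called differences above 0 with at least 100 CPM. miR-8072, miR-3607-3p (−1.90) and miR-26b-3p (−1.79) were the largest below 0. miR-8072 rests on 3 counts in E5 and 29 in R821E, a ratio of 0.0687 after scaling to TMM library size with an exact 95% counting interval of 0.0134 to 0.221.

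Each form was also compared with the same 2 WT libraries, so these comparisons share their controls. On the TMM scale 1 entry passed in A5 (0.267%), 1 in ΔPAZ helix (0.267%), 12 in R821A (3.21%) and 179 in R821E (47.9%). Relative to the spike-ins, 55 entries were lower than WT in A5 (14.7%), 49 in ΔPAZ helix (13.1%), 16 in R821A (4.28%) and 226 in R821E (60.4%). The miRNA counts per spike-in count were also below both WT libraries in every other form. R821E had 15.3 and 13.4, A5 had 18.3 and 18.6, ΔPAZ helix had 20.6 and 17.8, and R821A had 17.6 and 21.5. The lower level relative to the spike-ins was therefore not seen in E5 alone. For miR-25-3p the mean CPM was 3778 ± 436 in WT (SD, n = 2 here and below), 2963 ± 106.2 in A5, 2235 ± 102.9 in R821A, 2001 ± 57.8 in ΔPAZ helix, 1867 ± 244 in E5 and 582 ± 24.8 in R821E. E5 and ΔPAZ helix did not differ beyond their spread, and R821E lay below every other form. For let-7i-5p, E5 (3138 ± 120), R821A (3093 ± 46.0) and R821E (2982 ± 228) overlapped, and all lay below A5 (4018 ± 216), ΔPAZ helix (4882 ± 216) and WT (6053 ± 976). For miR-98-5p the WT libraries stood above all 10 others.

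**Figure D5:**
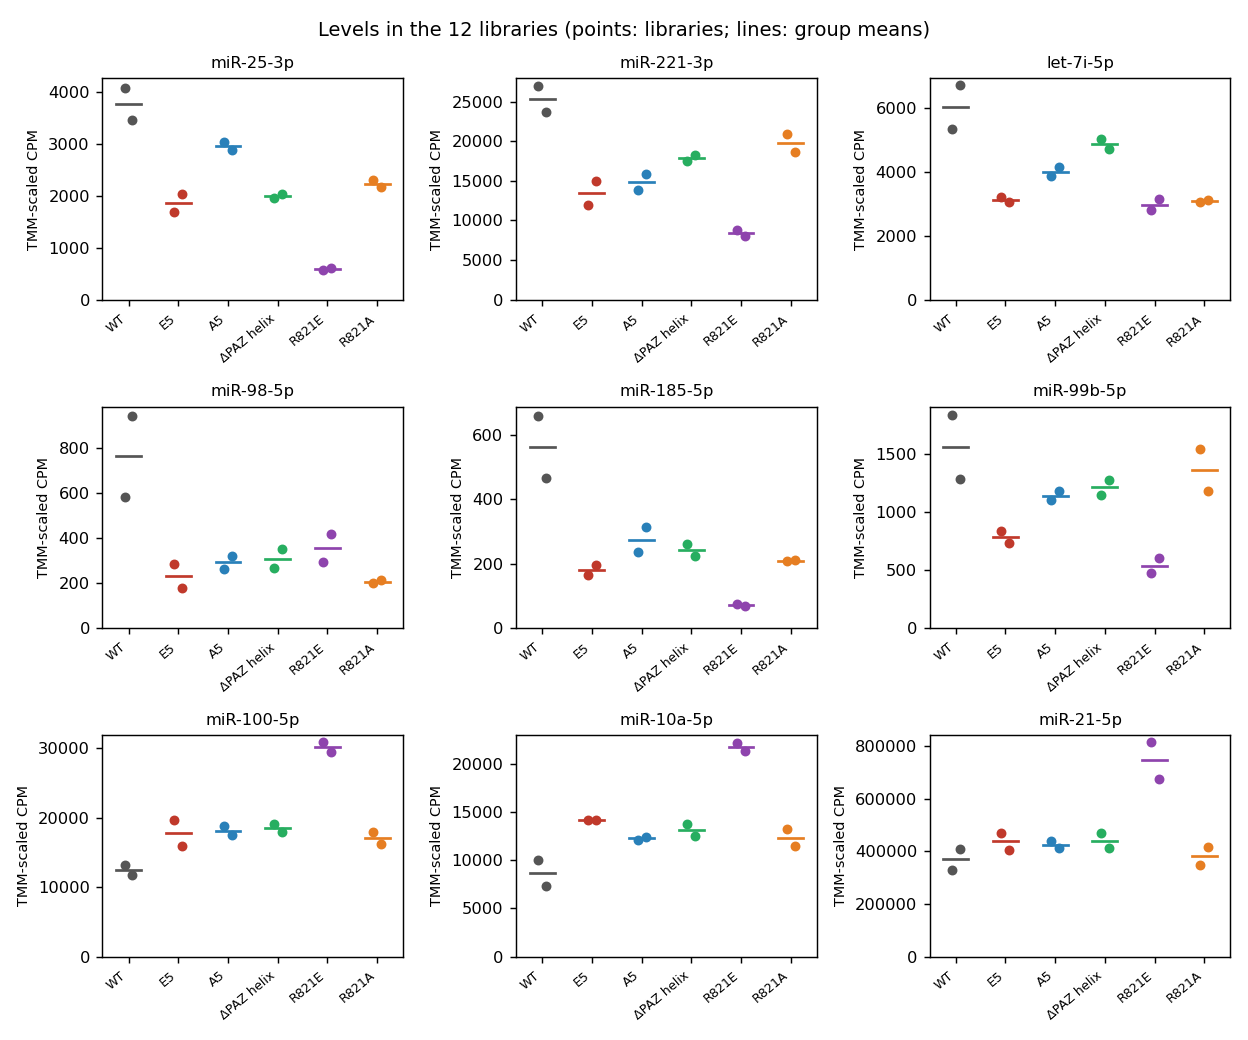
TMM-scaled CPM of 9 miRNAs in the 12 libraries, by form of DICER, with points for libraries and lines for the group means. The E5 libraries lie between WT and R821E for miR-25-3p, miR-221-3p, miR-185-5p, miR-99b-5p, miR-100-5p and miR-10a-5p, and for miR-21-5p they overlap the WT libraries.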

How the data were processed

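Small RNA of 12 HCT116 libraries was sequenced by AQ-seq on a NovaSeq 6000 from TRIzol total RNA, per the labels' protocols. The authors deposited raw read counts for each entry. Cutadapt, bedtools and BWA, with the builds mm10 and hg38, stand in the submitters' processing notes. The sources used here do not give versions, what each build was for, or how reads matching several miRNAs were handled. miR-500a-5p and miR-500b-5p had identical counts in every library.

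The main test was edgeR 4.0.16 (R 4.3.3; quasi-likelihood, robust, TMM factors, filterByExpr) in 1 fit over 12 libraries with 6 residual degrees of freedom. The 30 spike-in entries were left out of library sizes. On the spike-in scale the library size was proportional to the summed spike-in counts. Benjamini-Hochberg adjustment ran over all 374 entries, with a threshold of 0.05. Arm ratios, log2((5p + 0.5)/(3p + 0.5)), were tested with limma 3.58.1 where both arms averaged 20 or more counts. DESeq2 1.42.0 was an alternative. Single values were compared with exact permutation tests over libraries (scipy 1.17.1). The scripts were tested on simulated data. Replicates of WT and of E5 differed by more than sampling noise (chi-square per degree of freedom 25.6 and 14.6).

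Named entries were those called on the TMM scale with at least 100 CPM in E5 or WT, the 10 most abundant in WT, hairpins past the arm test with the next by p up to 5, list members, the 3 largest called differences each way in direct contrasts, and the 5 most abundant called on the spike-in scale alone. Entries named from the spike-in contrast of E5 with R821A, entries of shared transcripts and the 3 calls under 100 CPM were chosen after their values were seen. The members and lists were chosen with earlier results of these data known. Sequences come from RefSeq and host genes from GENCODE release 29. The alternatives were other scalings, filters, tests, library sets, a replicate block and leaving out each library.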

Additional observations from a re-analysis of the deposited data

How the results depend on the processing

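All 34 calls on the TMM scale kept their direction under 15 alternatives, none of them on the spike-in scale, wherever they were tested. Where only the set of libraries changed, this was nearly fixed in advance, because the E5 and WT libraries of the 34 did not overlap. Calls were also counted anew in each alternative fit, whether or not they were among the 34. Their number was 0 with the 4 libraries alone, 6 to 28 with 1 library left out, and 25 to 35 with DESeq2, limma-voom, other scalings, other filters or no robust step. Of the 34 themselves, 22 to 32 were called again with DESeq2, limma-voom, other scalings, other filters or no robust step. Some fits with 1 library left out called entries outside the 34 as well. Same-numbered libraries share only a number in the labels, and the deviations of E5 and WT correlated at −0.50. With the replicate number as a block 22 entries were called, and with the numbers of WT crossed 38, the latter chosen after seeing the data. On the spike-in scale the count was 32 with the 4 libraries alone, 63 to 119 with 1 library left out and 87 with the replicate block. Arm calls numbered 0 with at least 5 counts in both arms, 0 with the 4 libraries alone, 0 to 5 with 1 library left out and 2 with the replicate block. E5 against A5 gave 0 to 1 calls with 1 library left out, against ΔPAZ helix 0 to 1, against R821A 0 to 2 (9 on the spike-in scale) and against R821E 37 to 96. The replicate block gave 0 calls against A5, ΔPAZ helix and R821A and 96 against R821E. Entries that did not pass and changed sign were miR-21-3p (−0.60 to 0.64 with 1 library left out), miR-24-3p (−0.13 to 0.49), miR-31-5p (−0.18 to 0.61) and miR-27a-3p (−0.38 to 0.30 with 1 library left out, 0.011 with DESeq2 and 0.011 with its size factors in edgeR). The cause was not tested. Where a library was left out, the lone library of its form is assumed to vary like the others. miRNA counts per spike-in count and the share of 3p strands kept their direction throughout.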
